A study of Homo sapiens with 6 samples.

Results

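The RNA exosome was followed through its 10 genes, EXOSC1 to EXOSC10, which were taken by gene symbol. No cut on a measured value was used, but earlier results of these data were known when the genes were chosen. They are 10 of the 63190 Ensembl genes and hold 84 of the 207167 transcripts in the data. RNA-seq levels were compared between 3 libraries of HEK293T-Rex cells (a human embryonic kidney line, HEK293 in the sample labels) that express D391N, a catalytically inactive DIS3L2 from a stably integrated construct, and 3 libraries of control HEK293T-Rex cells. DIS3L2 is a cytoplasmic 3′-to-5′ exoribonuclease that prefers RNAs with an oligo(U) tail. Expression of the construct was induced with doxycycline, and whether the control cells also received it is not given in the sources used here. All D391N libraries came from 1 line and all controls from another, so the construct and the line cannot be told apart. No source says that the replicates were separate cultures, so p-values measure the spread between these libraries only.

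The exosome is the main 3′-to-5′ RNA decay machine of eukaryotic cells and works in the nucleus, the nucleolus and the cytoplasm. EXOSC4 to EXOSC9 form a ring with a central channel, and EXOSC1, EXOSC2 and EXOSC3 form a cap over it through which RNA is threaded. The human ring and cap have no nuclease activity of their own. Degradation is carried out by DIS3 or DIS3L at the base of the channel and by EXOSC10, a distributive nuclease that sits on the cap in the nucleus. DIS3L2 is related to DIS3 but acts without the exosome.

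The deposited level of a transcript is an RPKM estimate (reads scaled to transcript length and library size), and gene levels are sums of RPKM over the transcripts of a gene. DIS3L2 summed to 369, 467 and 512 RPKM in D391N replicates 1, 2 and 3 and to 11.8, 12.9 and 14.6 RPKM in the controls, in keeping with the labels (exact two-sided permutation test, p = 0.1, the smallest that 3 against 3 can give). Gene levels correlated across genes at r = 0.959 to 0.977 within the controls, at 0.885 to 0.935 within D391N and at 0.824 to 0.956 between the conditions. Transcripts under 200 nt took 0.342% of summed RPKM times length in D391N replicate 2 and 1.52% to 3.18% in the other libraries. Of the HEK293 markers, KRT8 (98.6 to 180 RPKM), KRT18 (26.5 to 40.7 RPKM) and VIM (109.6 to 177 RPKM) were clearly present, and all 3 were lower in every D391N library than in every control, at -0.69, -0.27 and -0.43 on the log2 scale (adjusted p = 0.0907, 0.374 and 0.21). The part of this shift in the results was not tested. PAX2 (1.31 to 1.93 RPKM) and NEFM (0.241 to 0.638 RPKM) were at levels like those of PTPRC, HBB, ALB and CD3E (0.0796 to 7.12 RPKM), which mark other cell types. Depth is unknown in reads. As a guide, EXOSC6, which has a single listed transcript, carried in each library the variance of an estimate based on 2792 to 5465 reads.

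The levels of exosome isoforms depend on how reads were divided between them, so the exon joins that set apart the main isoforms are shown here. Each line gives the last 15 bases of an exon in lower case and the first 15 bases of the exon joined to it in capitals, read 5′ to 3′ on the gene's strand from the GENCODE v44 transcript sequences on GRCh37. The EXOSC10 pair differs by an exon of 75 nt (chr1:11133991-11134065, minus strand), which ENST00000304457 leaves out and ENST00000376936 includes. Only reads that touch this exon or its joins separate these isoforms.
EXOSC10 ENST00000304457 (exon left out): aatccatttaggatgATCAGCAACCGCTGG
EXOSC10 ENST00000376936 (exon included, first join): aatccatttaggatgTTTCTGCCCTCACTG
EXOSC10 ENST00000376936 (exon included, second join): accaaaatctatgaaATCAGCAACCGCTGG

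The EXOSC2 and EXOSC8 isoforms shown next are of the nonsense-mediated decay class, in which the reading frame ends early and the transcript is predicted to be degraded. EXOSC2 ENST00000491115 joins 133570980 to 133574716 on chromosome 9 and so leaves out 2 exons of 136 nt in all that the coding ENST00000372358 holds. A further exon of that transcript is left out downstream. EXOSC8 ENST00000239893 joins 37574959 to 37576625 on chromosome 13 and leaves out 37 nt of the coding ENST00000389704. EXOSC9 ENST00000511132, a partial coding model of 515 nt, joins 122732826 to 122735021 on chromosome 4 and leaves out 147 nt of the full-length ENST00000243498.
EXOSC2 ENST00000491115: agctttgaaaaccagAGGAGAAGATCTGCA
EXOSC2 ENST00000372358: agctttgaaaaccagATACATTGGTGAAGT
EXOSC8 ENST00000239893: ggcggctgggttcaaAAAGAGAACTGCCGT
EXOSC8 ENST00000389704: ggcggctgggttcaaAACCGTGGAACCTCT
EXOSC9 ENST00000511132: tgaccaaaaagtaagTGTTTCTACACCTGT
EXOSC9 ENST00000243498: tgaccaaaaagtaagGAAAGAAGGTGGAAA

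The subunits of the exosome did not have equal RNA levels, although the complex holds them in equal number. In the control cells the order of mean summed RPKM ran from EXOSC2 (109 RPKM) through EXOSC10 (66.3), EXOSC9 (63.8), EXOSC3 (58.0), EXOSC8 (48.9), EXOSC6 (25.5), EXOSC1 (22.5), EXOSC7 (17.1) and EXOSC5 (12.2) to EXOSC4 (5.43 RPKM), a range of 20.1-fold. Ranges of the 3 control libraries overlapped in 5 of the 9 neighbouring pairs, so each gene in the run EXOSC10, EXOSC9, EXOSC3, EXOSC8 did not differ from the next beyond its spread, and likewise in the run EXOSC6, EXOSC1, EXOSC7. In these sums over all transcript classes EXOSC2 stood above all others, and EXOSC5 and EXOSC4 stood below all others without overlap. In D391N cells the range from EXOSC2 to EXOSC4 was 32.1-fold, and 3 of 9 neighbouring pairs overlapped. The order differed in protein-coding transcripts alone. There the control mean of EXOSC2 was 24.8 RPKM, under EXOSC10 (46.2), EXOSC9 (40.4) and EXOSC6 (25.5 RPKM). EXOSC8 was at 13.0 RPKM, and EXOSC7 (7.17 RPKM) was under EXOSC5 (10.1 RPKM).

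**Figure D1:**
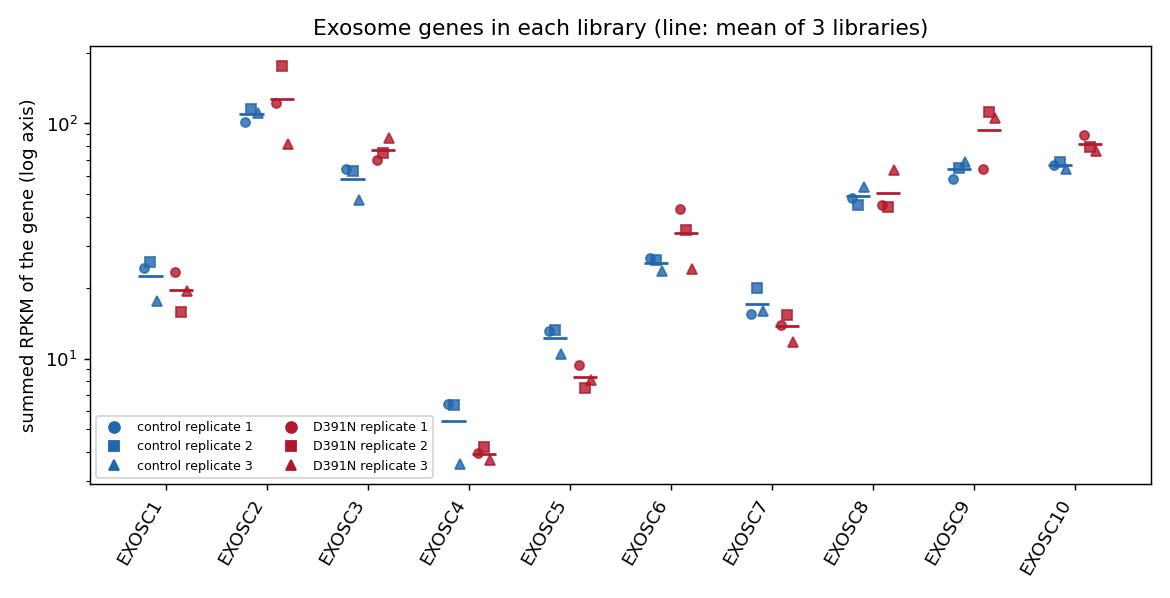
Summed RPKM of the 10 exosome genes (log axis) in each of the 3 control (blue) and 3 D391N (red) libraries, with the mean as a line and a marker shape for each replicate. EXOSC3 and EXOSC10 have all red points above all blue points, EXOSC5 and EXOSC7 have all red points below, and the other 6 genes overlap.

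No exosome gene passed an adjusted p of 0.05 between D391N and control cells (limma on log2(RPKM + 0.1), Benjamini-Hochberg adjustment over all 20714 genes tested). The same test called 29 genes in all, or 0.14%, of which 28 were lower and 1 was higher. At an unadjusted p under 0.05, 1 of the 10 exosome genes differed, beside 22.7% of all genes. In 2 exosome genes every D391N library lay above every control, beside 10.5% of all genes, and in 2 every D391N library lay below, beside 20.7%. The median log2 fold change of the 10 genes was 0.09, and that of all genes tested was -0.09. All 10 exosome genes passed the filter of a mean of at least 1 RPKM. The test was also run on simulated data, with independent noise at the SD of each gene pooled over both conditions. It recovered 84% of genes changed by 3 on the log2 scale and 0% of genes changed by 1. Deviations that a whole library shares, and a wider spread in D391N, were not simulated. Every exosome gene sum here differed by less than 1. Less RNA per cell and fewer cells that express a gene cannot be told apart in such bulk samples.

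Among the cap genes, EXOSC1 (ENSG00000171311, chr10:99195666-99205774, minus strand), an S1-domain protein, measured 23.3, 15.8 and 19.3 RPKM in D391N replicates 1, 2 and 3 and 24.4, 25.7 and 17.6 RPKM in the controls. The groups overlapped, and the log2 fold change was -0.21 ± 0.22 (SE, adjusted p = 0.599). EXOSC2 (ENSG00000130713, chr9:133569108-133582675, plus strand), which binds RNA with S1 and KH domains, measured 122, 176 and 82.1 RPKM in D391N and 101, 116 and 111 RPKM in control cells. Its D391N libraries spread on both sides of the controls, with a mean of 127 ± 47.1 RPKM against 109 ± 7.26 RPKM (SD, n = 3) and a log2 fold change of 0.14 ± 0.28 (SE, adjusted p = 0.791).

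EXOSC3 (ENSG00000107371, chr9:37759231-37832114, minus strand), the third cap protein and a disease gene of pontocerebellar hypoplasia, measured 70.1, 75.0 and 87.0 RPKM in D391N and 64.1, 62.8 and 47.2 RPKM in control cells. Every D391N library was above every control, at means of 77.4 ± 8.71 and 58.0 ± 9.43 RPKM, but the log2 fold change of 0.42 ± 0.18 did not pass (adjusted p = 0.222). DCAF10 and TRMT10B lie over parts of EXOSC3 on the other strand. The pseudogenes EXOSC3P1 and EXOSC3P2 were listed at 0.874 to 2.10 and at 0.0375 to 0.148 RPKM.

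In the ring, EXOSC4 pairs with EXOSC9. EXOSC4 (ENSG00000178896, chr8:145133551-145135551, plus strand) was the lowest member, at 3.96, 4.18 and 3.68 RPKM in D391N and 6.41, 6.35 and 3.55 RPKM in control cells. Control replicate 3 fell among the D391N libraries, and the log2 fold change was -0.41 ± 0.26 (SE, adjusted p = 0.395). Its ring partner EXOSC9 (ENSG00000123737, chr4:122722473-122738176, plus strand), first known as the autoantigen PM/Scl-75, measured 63.8, 112 and 105.6 RPKM in D391N and 58.2, 64.6 and 68.7 RPKM in control cells. D391N replicates 2 and 3 were above every control and replicate 1 was not, and the log2 fold change was 0.52 ± 0.24 (SE, adjusted p = 0.251). Without D391N replicate 1 it was 0.77 (adjusted p = 0.0314), in a test that then called 2261 genes, or 10.9%. EXOSC9 overlaps CCNA2 on the other strand, which was at 22.2 to 39.0 RPKM in D391N and 24.4 to 30.9 RPKM in control cells.

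EXOSC5 (ENSG00000077348, chr19:41892276-41903267, minus strand) gave the largest difference below 0 of the 10 gene sums. It measured 9.34, 7.51 and 8.11 RPKM in D391N and 13.0, 13.2 and 10.5 RPKM in control cells. Every D391N library was below every control, and the log2 fold change of -0.55 ± 0.17 had an unadjusted p of 0.0148 and an adjusted p of 0.144. EXOSC7 (ENSG00000075914, chr3:45016733-45077558, plus strand), also a ring gene, measured 13.9, 15.4 and 11.8 RPKM in D391N and 15.4, 20.0 and 15.9 RPKM in control cells. The D391N values were again the lower ones, by a margin of less than 0.1 RPKM between D391N replicate 2 and control replicate 1, and the log2 fold change was -0.32 ± 0.18 (SE, adjusted p = 0.321). ZDHHC3 overlaps EXOSC7 on the other strand.

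EXOSC6 (ENSG00000223496, chr16:70280681-70285843, minus strand) is an intronless gene, so its value does not rest on a division between isoforms. It measured 43.4, 35.2 and 24.0 RPKM in D391N and 26.7, 26.4 and 23.6 RPKM in control cells. D391N replicate 3 fell among the controls, and the log2 fold change was 0.38 ± 0.23 (SE, adjusted p = 0.364). EXOSC8 (ENSG00000120699, chr13:37572953-37600018, plus strand), also a ring gene, measured 44.8, 44.2 and 63.3 RPKM in D391N and 48.1, 45.0 and 53.6 RPKM in control cells. The groups overlapped, and the log2 fold change was 0.04 ± 0.19 (SE, adjusted p = 0.928). EXOSC8 overlaps ALG5 and SUPT20H on the other strand.

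EXOSC10 (ENSG00000171824, chr1:11126675-11159926, minus strand), the nuclear nuclease, measured 89.3, 79.7 and 76.0 RPKM in D391N and 66.3, 68.4 and 64.2 RPKM in control cells. Every D391N library was above every control, at means of 81.7 ± 6.87 and 66.3 ± 2.10 RPKM (SD, n = 3), with a log2 fold change of 0.30 ± 0.14 (SE, adjusted p = 0.245). Its antisense neighbour EXOSC10-AS1 was at 0.768 to 2.20 RPKM. Set against the median of the other 9 genes, EXOSC10 stood at 2.06, 2.27 and 3.17 times in D391N and at 2.48, 2.60 and 2.72 times in control cells, and the groups overlapped. Summed over the 9 core genes, levels were 395, 485 and 405 RPKM in D391N and 358, 380 and 352 RPKM in control cells. In these sums over all transcript classes every D391N sum was above every control sum. The members with the largest mean differences in RPKM were EXOSC9, EXOSC3 and EXOSC2. The median of the 9 core genes overlapped, at 43.4, 35.2 and 23.95 RPKM in D391N and 26.7, 26.4 and 23.6 RPKM in control cells. Core sums over protein-coding transcripts or of RPKM times length were not compared, so the higher core total is shown for this sum only.

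How the transcripts were summed changed the picture for some genes and not for others. A sum of RPKM over all isoforms gives short partial transcripts the weight of full ones, so sums over protein-coding transcripts and sums of RPKM times length, which follow the reads of a gene, were also compared. With RPKM times length, 0 of the 10 exosome genes passed by limma, beside 2.84% of all genes, and 2 had an unadjusted p under 0.05, beside 26.3%. The log2 fold changes then ran from -0.51 for EXOSC5 to 0.38 for EXOSC6, and EXOSC9 (0.36 ± 0.15) and EXOSC10 (0.23 ± 0.12) had every D391N library above every control. EXOSC5 stayed lower in every D391N library, and EXOSC3 and EXOSC7 overlapped on this scale. EXOSC2 and EXOSC8 were at -0.0086 and 0.12.

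With protein-coding transcripts alone, 1 of the 10 exosome genes passed, beside 5.22% of all genes (90 higher and 503 lower), and 4 had an unadjusted p under 0.05, beside 29.3%. This was EXOSC2, whose coding transcripts summed to 9.22, 9.02 and 13.5 RPKM in D391N and 20.0, 30.5 and 23.9 RPKM in control cells. The coding sum of EXOSC2 fell by 1.22 ± 0.23 on the log2 scale (adjusted p = 0.0324) while its sum over all transcripts was at 0.14 ± 0.28. Its coding ENST00000495699 had a posterior SD (root of the deposited variance, log2 scale) of 1.76, 1.81 and 0.721 in D391N. In control cells it was 0.866, 0.298 and 0.647, where a transcript without reads has 1.85. For the coding ENST00000372358 it was 1.26, 1.36 and 0.538 in D391N and 0.323, 0.316 and 0.268 in control cells. The effect of these wide posteriors on the call was not tested. The call rested on all 3 controls, since the adjusted p was 0.0839, 0.129 and 0.126 without control replicates 1, 2 and 3, at log2 fold changes of -1.37, -1.07 and -1.24. It held without D391N replicates 1, 2 and 3 in turn, where 2042, 372 and 166 of 11351 genes passed.

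EXOSC7 and EXOSC9 lay just outside the threshold in their coding sums. For EXOSC7 these were 3.43, 4.25 and 2.66 RPKM in D391N and 7.43, 8.76 and 5.32 RPKM in control cells, lower without overlap, at a log2 fold change of -1.03 ± 0.25 (adjusted p = 0.0502). It passed without D391N replicate 1 (adjusted p = 0.048) and without D391N replicate 2 (adjusted p = 0.046), at log2 fold changes of -1.04 and -1.19. These settings called 2042 and 372 of 11351 genes. For EXOSC9 the coding sums were 53.5, 76.4 and 84.2 RPKM in D391N and 37.7, 41.9 and 41.7 RPKM in control cells, higher without overlap, at a log2 fold change of 0.79 ± 0.20 (adjusted p = 0.054). EXOSC9 passed without D391N replicate 1, at 0.99 (adjusted p = 0.014), the setting that called 2042 genes. Most of the EXOSC9 difference in this sum was in the partial model ENST00000511132. The coding sums of EXOSC5 (-0.56 ± 0.17, adjusted p = 0.081) and EXOSC10 (0.21 ± 0.17) were close to the sums over all transcripts, but in EXOSC10 D391N replicate 1 (45.9 RPKM) fell among the controls (43.9 to 47.8 RPKM). EXOSC1 (-0.67 ± 0.42) and EXOSC8 (-0.55 ± 0.38) were lower than in the full sums and overlapped. The median over the 10 genes was -0.48 in coding sums, and that of all genes was -0.10.

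**Figure D2:**
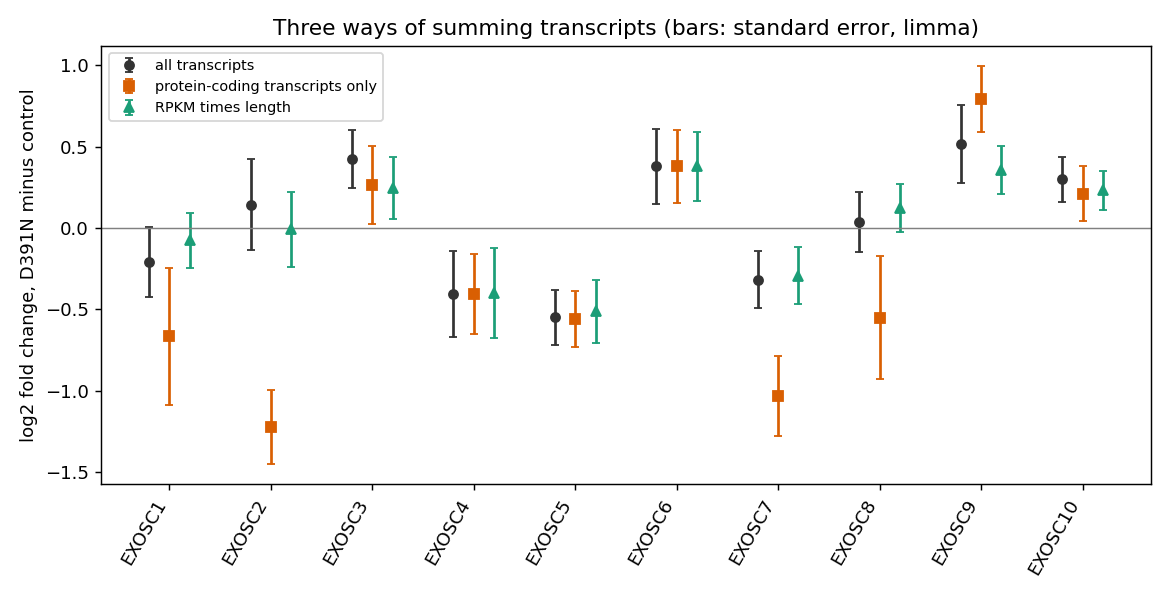
Log2 fold change (D391N minus control, points) and its standard error (bars) for each exosome gene, with transcripts summed in 3 ways. The ways coincide for EXOSC4, EXOSC5 and EXOSC6, and the protein-coding sum lies far below the others for EXOSC2 (-1.22) and EXOSC7 (-1.03).

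At the level of single transcripts, 55 of the 84 listed exosome transcripts had a mean of at least 1 RPKM and were tested, and 29 lay under this filter. None passed an adjusted p of 0.05 by limma, where 33 of 54671 transcripts, or 0.0604%, did. At an unadjusted p under 0.05, 10 of the 55 differed, beside 17.6% of all transcripts. Of the 10, 9 were lower in D391N cells, and the split by direction over all transcripts is not given here. Of transcripts with an over 2-fold difference and no overlap, 8 of 7 genes were lower, beside 8.64% of all transcripts, and 1 was higher, beside 4.91%. The median log2 fold change of the 55 was -0.08 and that of all transcripts was -0.07.

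Shares of a transcript within its gene were also compared. Of 54 exosome transcripts in genes with more than 1 isoform, 0 passed the adjusted threshold, beside 0.00831% of all, and 13 had an unadjusted p under 0.05, beside 15.3%. The median log2 fold change of the share was -0.21 for exosome transcripts and -0.05 for all.

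The widest ratio was in EXOSC10. The exon-skipping ENST00000304457 measured 1.17, 0.172 and 0.557 RPKM in D391N and 8.39, 4.79 and 4.78 RPKM in control cells. Every D391N library was lower, with a log2 fold change of -3.27 ± 0.60 (adjusted p = 0.104), or -2.10 with a pseudocount of 1 and -2.68 without D391N replicate 2. The isoform was poorly determined in both conditions: its posterior SD on the log2 scale was 1.58, 1.84 and 1.15 in D391N and 0.62, 1.09 and 1.33 in control cells, where a transcript without reads has 1.85. The isoform with the 75-nt exon, ENST00000376936, was at 44.8, 53.4 and 61.5 RPKM in D391N and 39.5, 39.1 and 42.0 RPKM in the controls, higher in every D391N library and well determined (posterior SD 0.02 to 0.12). It made up 50.1%, 66.9% and 80.9% of the gene in D391N and 59.5%, 57.2% and 65.5% in control cells, which overlapped. The skipping isoform averaged 0.754% and 9.03%. The log2 fold change of ENST00000376936 was 0.39 ± 0.23 (adjusted p = 0.405).

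In EXOSC2 the most abundant transcript was not coding. The nonsense-mediated decay class ENST00000491115 measured 78.0, 113.5 and 43.0 RPKM in D391N and 44.3, 39.7 and 48.5 RPKM in control cells, which overlapped (log2 fold change 0.72 ± 0.38, adjusted p = 0.364). The full coding ENST00000372358 measured 2.53, 2.57 and 5.42 RPKM in D391N and 8.98, 9.78 and 11.7 RPKM in control cells. These groups did not overlap, and the log2 fold change was -1.59 ± 0.36 (adjusted p = 0.136), at a posterior SD of 0.27 to 1.36. The decay-class isoform averaged 60.3% of EXOSC2 RPKM in D391N and 40.5% in control cells, and the coding isoform 3.38% and 9.26%. The retained-intron ENST00000463488 was also lower in every D391N library, at 4.53, 2.70 and 2.22 RPKM against 6.81, 8.54 and 7.38 RPKM (log2 fold change -1.30 ± 0.32, adjusted p = 0.156).

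EXOSC8 also had a most abundant transcript of the decay class. ENST00000239893 measured 16.3, 21.8 and 30.7 RPKM in D391N and 15.8, 12.7 and 15.3 RPKM in control cells, higher without overlap by a log2 fold change of 0.60 ± 0.30 (adjusted p = 0.336). The retained-intron ENST00000495092 measured 6.50, 3.14 and 5.11 RPKM in D391N and 8.38, 11.3 and 15.5 RPKM in control cells, lower without overlap (-1.25 ± 0.37, adjusted p = 0.19). The coding ENST00000389704, not singled out by the rule for named transcripts and given for comparison after its values were seen, was at 10.8, 3.42 and 13.3 RPKM against 13.4, 11.6 and 12.2 RPKM.

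EXOSC9 held the only exosome transcript over 2-fold higher without overlap. ENST00000511132 measured 20.8, 61.0 and 46.4 RPKM in D391N and 7.08, 15.1 and 18.1 RPKM in the controls (log2 fold change 1.64 ± 0.52, adjusted p = 0.205). ENST00000503236, without a defined coding region, measured 4.54, 5.30 and 8.38 RPKM in D391N and 14.0, 15.5 and 21.0 RPKM in the controls (log2 fold change -1.48 ± 0.32, adjusted p = 0.128). Both leave out the same 147-nt exon. The full-length ENST00000243498, given after its values were seen, was at 25.1, 7.75 and 29.8 RPKM in D391N and 23.6, 20.6 and 20.2 RPKM in control cells. In D391N replicate 2, where ENST00000511132 was highest, the full-length form was lowest.

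EXOSC1, EXOSC3 and EXOSC7 each had 1 isoform more than 2-fold lower. EXOSC1 ENST00000370902, its most abundant and coding isoform, measured 2.31, 1.85 and 3.25 RPKM in D391N and 7.44, 5.89 and 5.58 RPKM in control cells (log2 fold change -1.34 ± 0.30, adjusted p = 0.136). EXOSC7 ENST00000265564, the only coding isoform of that gene among the tested ones, had a log2 fold change of -1.03 ± 0.31 (adjusted p = 0.192). EXOSC3 ENST00000490516, without a defined coding region, measured 0.841, 0.725 and 0.874 RPKM in D391N and 1.56, 1.77 and 2.25 RPKM in control cells (-1.09 ± 0.34, adjusted p = 0.198). None of these 3 overlapped between the groups. The main isoforms of EXOSC3 (ENST00000396521, 0.31 ± 0.30), EXOSC4 (ENST00000527954, -0.18 ± 0.30) and EXOSC5 (ENST00000221233, -0.38 ± 0.28) had smaller differences, which did not pass.

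EXOSC3 ENST00000482614, given after its values were seen, was listed at 0.411, 32.5 and 30.6 RPKM in D391N and at 0.349, 2.16 and 1.99 RPKM in control cells. Replicate 1 of both conditions had the posterior SD of a transcript without reads (1.86 and 1.87), and control replicates 2 and 3 were poorly determined too (1.11 and 1.08). The log2 fold change was 2.64 ± 1.65 (adjusted p = 0.43), and 4.62 (adjusted p = 0.022) without D391N replicate 1. Without that library 6 of the 55 exosome transcripts passed, beside 9.07% of all transcripts, and 4 of the 54 shares, beside 6.16%.

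**Figure D3:**
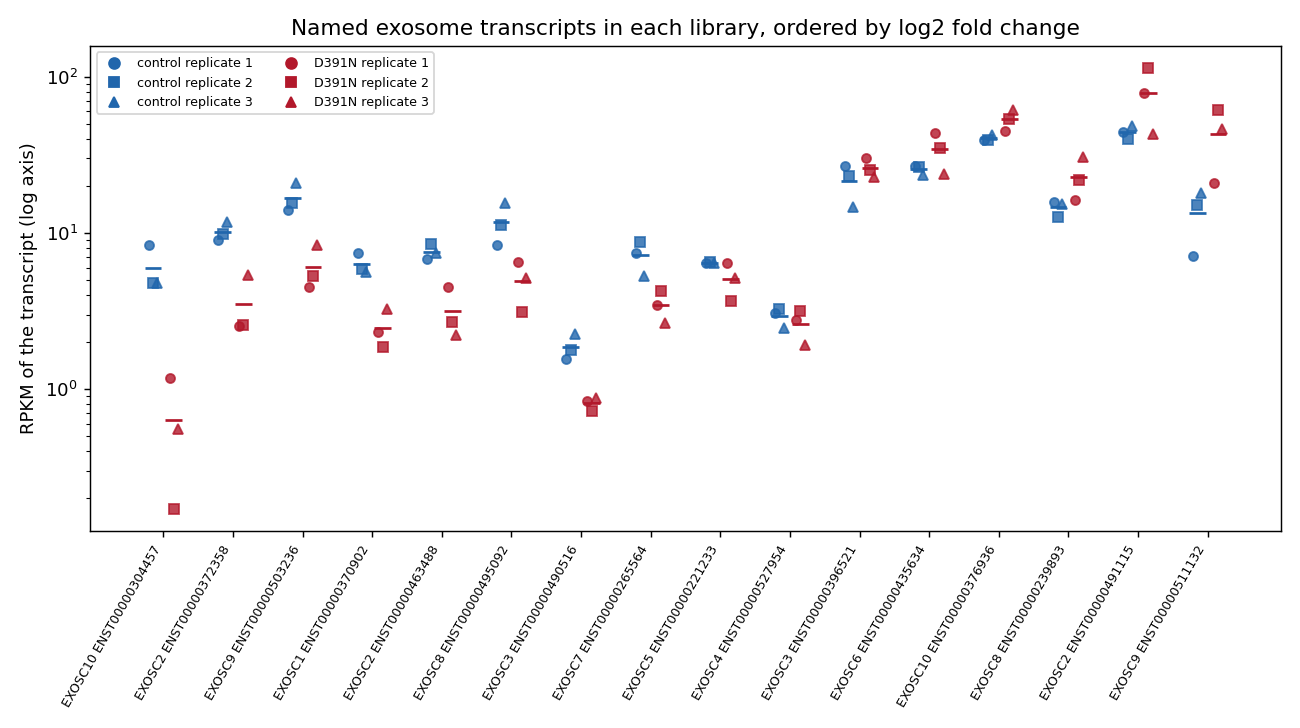
RPKM (log axis) of the 16 exosome transcripts named by rule, in each control (blue) and D391N (red) library, ordered from the lowest log2 fold change (EXOSC10 ENST00000304457, -3.27) to the highest (EXOSC9 ENST00000511132, 1.64), with the mean as a line. The first 9 transcripts have all red points below all blue points. Lack of overlap was part of the naming rule for transcripts that were not the most abundant of their gene.

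The share of a gene's RPKM in protein-coding transcripts could be compared in the 8 exosome genes that also list other classes, since EXOSC4 and EXOSC6 were at 100% in every library. The share was lower on average in D391N cells in 7 of the 8, beside 58.2% of 10667 genes, and 3 of the 8 had an unadjusted p under 0.05, beside 13.4% of genes. The log2 differences of EXOSC3 (-0.16 ± 0.22), EXOSC5 (-0.013 ± 0.055) and EXOSC10 (-0.087 ± 0.17) were smaller than their SE. Without D391N replicate 1, EXOSC5 and EXOSC10 were above 0, at 0.015 and 0.088. No gene of the 10667 passed the adjusted threshold by limma. The median log2 difference of the share was -0.31 over the 8 genes and -0.03 over all, and the first of these came to -0.12 when D391N replicate 2 was left out and to -0.47 when replicate 1 was.

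For EXOSC2 the coding share was 7.55%, 5.13% and 16.5% in D391N and 19.7%, 26.4% and 21.5% in control cells, lower in every D391N library (log2 difference -1.37 ± 0.42, adjusted p = 0.308). For EXOSC7 it was 24.7%, 27.6% and 22.5% in D391N and 48.2%, 43.7% and 33.5% in control cells, again lower without overlap (-0.71 ± 0.20, adjusted p = 0.289). EXOSC9 went the other way, at 83.8%, 68.2% and 79.8% in D391N against 64.7%, 64.9% and 60.7% in control cells (0.28 ± 0.10, adjusted p = 0.329). EXOSC1 and EXOSC8 had a low share in D391N replicate 2 (32.7% and 9.89%) and shares of 69.8% to 82.2% and 21.5% to 30.0% in the other libraries. Summed over the 10 genes, coding transcripts held 46.7%, 39.7% and 52.1% of RPKM in D391N and 52.0%, 50.7% and 46.7% in control cells, and these ranges overlapped. Transcripts of the nonsense-mediated decay class held 21.3%, 25.5% and 16.6% in D391N and 16.1%, 13.6% and 17.1% in control cells, with overlap, and those with a retained intron 12.5%, 12.2% and 10.9% against 14.2%, 15.7% and 17.3%. The retained-intron percentages were lower in every D391N library, but the retained-intron RPKM overlapped, at 60.6, 69.2 and 52.4 in D391N and 60.1, 70.2 and 72.1 in control cells.

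**Figure D4:**
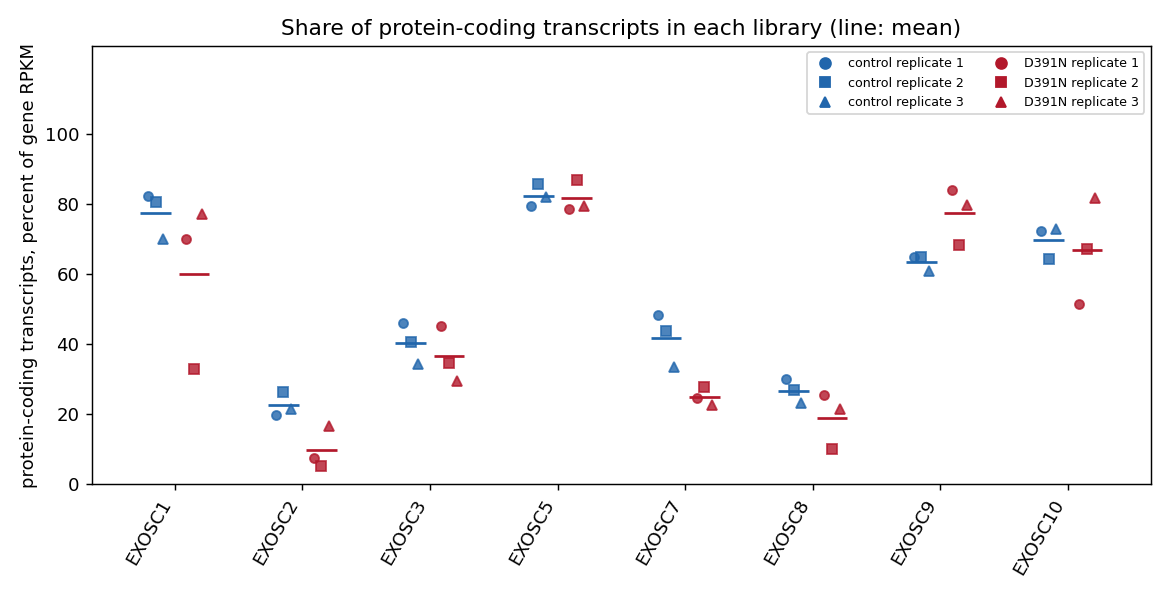
Share of protein-coding transcripts in the summed RPKM of 8 exosome genes, in percent, for each control (blue) and D391N (red) library, with the mean as a line. The red points of EXOSC2 and EXOSC7 lie below the blue points, and those of EXOSC9 lie above.

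Of 17 genes whose products work with the exosome, 0 passed the adjusted threshold by limma at gene level and 6 had an unadjusted p under 0.05, all of them higher in D391N cells, beside 22.7% of all genes in either direction. In 7 of the 17 every D391N library lay above every control (10.5% of all genes), and in 0 every library lay below (20.7%). The median log2 fold change of the 17 was 0.36, with 11 above 0 and 6 below. In protein-coding sums the median was 0.10, with 9 above 0 and 8 below, and 2 of the 17 had an unadjusted p under 0.05 (29.3% of all genes). In these sums 4 were higher and 1 was lower without overlap, and the shares of all genes for these counts are not given here.

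The catalytic subunit DIS3 measured 38.6, 49.0 and 56.0 RPKM in D391N and 37.0, 33.8 and 26.9 RPKM in control cells, higher in every D391N library (log2 fold change 0.55 ± 0.20, adjusted p = 0.179), but its coding sum overlapped (0.32 ± 0.23). DIS3L, which takes its place in the cytoplasm, measured 40.7, 45.2 and 29.4 RPKM against 36.0, 32.4 and 27.7 RPKM, with overlap (0.25 ± 0.20, adjusted p = 0.504). Of the proteins that hold EXOSC10 in the nuclear complex, C1D was at -0.21 ± 0.27 and MPHOSPH6 at -0.15 ± 0.18.

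The highest log2 fold change of the list was that of ZFC3H1, the zinc-finger scaffold that brings polyadenylated nuclear RNA to the exosome, at 72.2, 133 and 99.0 RPKM in D391N and 57.9, 55.0 and 57.8 RPKM in control cells (0.79 ± 0.23, adjusted p = 0.136). Its coding sum went the other way, at 10.8, 12.9 and 14.9 RPKM against 13.5, 14.7 and 13.4 RPKM, with overlap (-0.11 ± 0.17). ZCCHC8 (0.37 ± 0.13) and RBM7 (0.36 ± 0.18), both of the nuclear exosome targeting complex, were also higher without overlap, in coding sums only ZCCHC8 among these, while the helicase they work with, MTREX, overlapped at 0.15 ± 0.17. Of the oligoadenylating TRAMP-like proteins, TENT4B was higher without overlap (0.40 ± 0.16, adjusted p = 0.196), though not in its coding sum, and TENT4A was not (-0.13 ± 0.15). The coding sum of TENT4A was lower without overlap (-0.20 ± 0.15).

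The cytoplasmic SKI complex feeds mRNA to the exosome. Its scaffold SKIC3 measured 188, 201 and 184 RPKM in D391N and 119, 115 and 100.4 RPKM in control cells, higher without overlap and nearest to the threshold of the list (0.78 ± 0.15, adjusted p = 0.0832). HBS1L, whose short form bridges the SKI complex and the exosome, measured 118, 193 and 162 RPKM against 104, 92.6 and 92.2 RPKM (0.68 ± 0.21, adjusted p = 0.147). In coding sums SKIC3 (0.63 ± 0.22) and HBS1L (0.70 ± 0.22) were higher without overlap as well. The helicase SKIC2 had the lowest log2 fold change of the 17, at 5.43, 4.08 and 4.65 RPKM against 7.19, 6.14 and 4.86 RPKM (-0.35 ± 0.21, adjusted p = 0.368), and SKIC8 was at -0.28 ± 0.16, and both overlapped the controls. Without D391N replicate 1, ZFC3H1 (1.01, adjusted p = 0.0274), SKIC3 (0.79, adjusted p = 0.033) and HBS1L (0.88, adjusted p = 0.0292) passed, beside 10.9% of all genes.

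**Figure D5:**
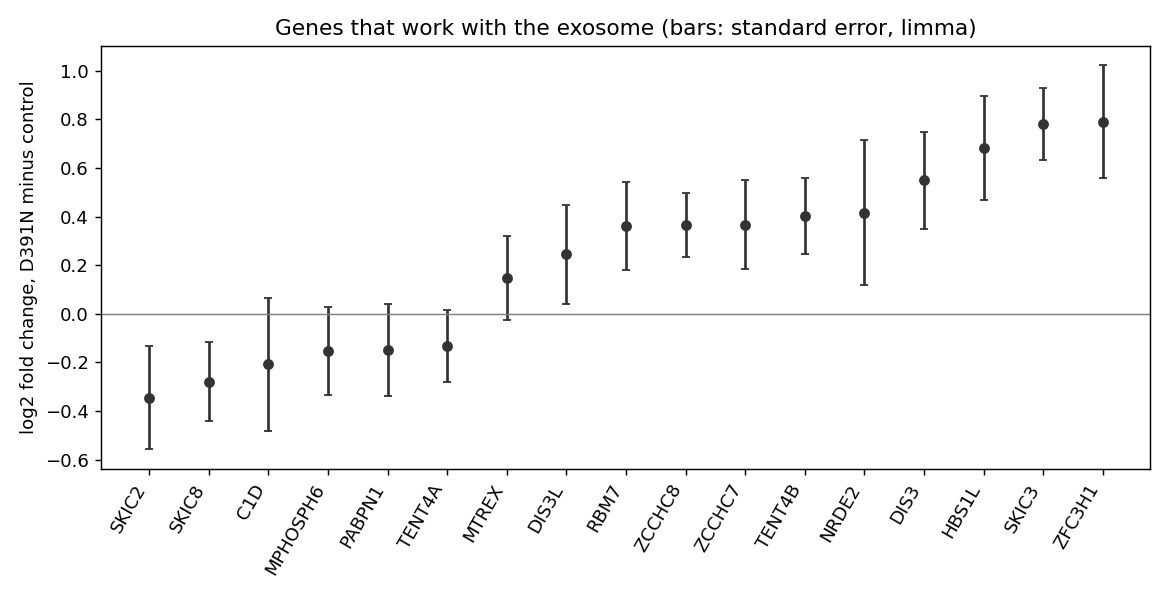
Log2 fold change of summed RPKM (D391N minus control, points) with its standard error (bars) for the 17 genes that work with the exosome, ordered from SKIC2 (-0.35) to ZFC3H1 (0.79). The points above 0 reach further from 0 than those below, and none passes the adjusted threshold.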

How the data were processed

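RNA-seq of 6 libraries was used. Total RNA was depleted of rRNA, cutadapt was used by the authors to trim adapters, Segemehl to align the reads to coding and non-coding Ensembl transcripts (GRCh38), and BitSeq to estimate levels. For every transcript in each library, the deposited values are a BitSeq posterior mean on a natural log scale (ln RPKM) and the variance of that posterior. Column names were matched to the sample titles by condition and replicate number.

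RPKM was computed as the exponential of the deposited mean and summed per Ensembl gene. Symbols were found for 88.2% of gene identifiers and a class and length for 90.2% of transcripts, by identifier in GENCODE v44 on GRCh37. Exon joins were copied from its transcript sequences. Features with a mean of at least 1 RPKM were tested as log2(RPKM + 0.1), which understates changes of low features, with limma 3.58.1 (empirical Bayes with trend) in R 4.3.3, D391N against control, and Benjamini-Hochberg adjusted p under 0.05. Shares were tested as log2 transcript minus log2 gene level. Python 3.11.15 with numpy 2.4.6, pandas 2.3.3, scipy 1.17.1 and matplotlib 3.10.9 wrote the tables and figures. The posterior SD is the root of the deposited variance on the log2 scale. It holds counting and read-assignment error only. Read totals were not used here.

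The exosome genes, the list of 17 partner genes and the tests were chosen with earlier results of these data known. Transcripts named are the most abundant of each gene and those tested with an absolute log2 fold change over 1 and no overlap of conditions, or past the threshold. Of the 17 partner genes, those with the highest and the lowest log2 fold change were to be named, and further ones are described with their values already known. Sums over coding transcripts, sums of RPKM times length and the coding share were added after seeing the data. Other pseudocounts, filters, scalings, limma without trend, a replicate block and leaving out each library were tried. The test was checked on simulated data of 20714 genes with 200 changed. The authors' BitSeq comparison needs posterior samples and was not repeated.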

Additional observations from a re-analysis of the deposited data

How the results depend on the processing

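No exosome gene, transcript or isoform share passed under the other pseudocounts, filters, scalings, limma without trend or the replicate block, and none passed without D391N replicate 2 or 3 or without any 1 control. Without D391N replicate 1, by contrast, 1 exosome gene, 6 transcripts, 4 shares and 3 of the 17 partner genes passed, so these counts ran from 0 to 1, 0 to 6, 0 to 4 and 0 to 3 when each library was left out. The gene was EXOSC9 (0.77). Of the transcripts named by rule, EXOSC9 ENST00000511132 (2.09), EXOSC10 ENST00000304457 (-3.80) and EXOSC2 ENST00000463488 (-1.59) were among those that passed. That setting called 2261 genes (10.9%), 9.07% of all transcripts and 6.16% of all shares, and the cause was not tested. Protein-coding transcripts alone gave 1 exosome gene, EXOSC2. No label pairs same-numbered libraries of the 2 conditions, and which libraries shared a sequencing lane is not given in the sources used here. Their deviations from the group means correlated at 0.07, 0.221 and -0.111, and 2 of 6 libraries correlated best with their own number. With the replicate block the test called 2 genes and 7 transcripts in all, 0 of them of the exosome. In coding sums limma with the block called 262 of 11351 genes, EXOSC2 (adjusted p = 0.0391) and EXOSC7 (adjusted p = 0.0426) among them. The median log2 fold change of the exosome genes, 0.09, was 0.31 with libraries centred on their medians, a scaling that moved the median of all genes from -0.09 to 0.13, and -0.48 in coding sums. With quantile normalization it was 0.10, at a median of all genes of 0.08. Small differences changed sign: EXOSC1 (0.011 with median centring), EXOSC2 (-0.13 without D391N replicate 2 and up to 0.42 without the others, -1.22 in coding sums, -0.0086 with RPKM times length), EXOSC8 (-0.13 without D391N replicate 3, -0.02 without control replicate 2, -0.55 in coding sums) and EXOSC4 ENST00000527954 (-0.33 to 0.022 when each library was left out). In all, 161 of 169 gene values and 217 of 221 transcript values kept their direction and their side of the threshold. EXOSC4 was left out by a filter of 5 RPKM. Isoform values of wide posterior limit what the transcript results and the coding sums can show.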

Other observations

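Of the 45 pairs of exosome genes, 18 (40%) had a Pearson r above 0 for their log2 gene levels over the 6 libraries, with a median of -0.08 and a range from -0.87 to 0.85. Over all pairs of the 20714 genes tested, 52.8% had r above 0, with a median of 0.05. The mean of the centred log2 levels of the 10 genes ran 0.04, 0.07, -0.06 over the D391N libraries in replicate order and 0.02, 0.09, -0.15 over the controls, lowest in replicate 3 of both conditions. The genes whose log2 levels followed this mean most closely were PSMD11, a subunit of the proteasome lid (r = 0.988), ALYREF, an mRNA export adaptor (r = 0.985), ENSG00000262304 (r = 0.984), ENSG00000245025 (r = 0.979) and TPMT, a thiopurine methyltransferase (r = 0.979). Of 20704 genes, 87 had r above 0.9. These values describe 6 libraries that share their depth and composition across genes.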
